A study of Mus musculus with 6 samples.

Results

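The Hox genes on the array were those whose RefSeq accession led to a mouse symbol made of Hox, a cluster letter from a to d and a paralog number. They were 39 genes, represented by 44 of the 55681 probes and making up 39 of the 36717 genes or other transcripts on the array. RNA came from the gastrocnemius, a calf muscle of the hindlimb, of male C57BL/6J mice. The young group was 13 weeks old (n = 3) and the aged group was 26 months old (n = 3), with no treatment or genetic change in either group. Each mouse had 1 single-colour array, and all 6 arrays were on 1 slide. Whole muscle was used, so that a difference can come from the fibres or from any other cell in the tissue, and fewer cells of a type cannot be told apart from less RNA per cell.

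Hox genes encode homeodomain transcription factors that tell cells of the embryo where along the body and the limb they lie. In mammals they stand in 4 clusters, Hoxa, Hoxb, Hoxc and Hoxd. Genes at the 3′ end of a cluster (low paralog numbers) are used toward the head, and genes at the 5′ end (high paralog numbers) toward the tail and the tip of the limb. Part of this pattern is known to persist in adult connective tissue and muscle, where it records the site of origin of the cells. Hox proteins bind DNA together with TALE homeodomain cofactors of the Pbx, Meis and Pknox families, and Polycomb and trithorax proteins keep the clusters silent or active.

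The 4 clusters were not measured equally well. For a test, a gene needed 1 probe that 3 or more arrays placed well above background, and 28 of the 39 Hox genes (71.8%) had one, compared with 64.8% of the 21366 genes with a symbol. No Hox gene passed through 1 age group only. The 3 genes that passed with fewer than 6 arrays were Hoxb2 (3 young and 1 aged), Hoxb8 (2 young and 2 aged) and Hoxc12 (1 young and 2 aged). The 75th percentile of the signal of an array was between 209 and 310, and between 48.7% and 53.8% of all probes were well above background. The array of aged mouse 1 had the most Hox probes above background, 33 of 44, and the others had between 27 and 29. It also had the highest share of all probes above background (53.8%) and the highest 75th percentile (310).

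All 11 genes of the Hoxa cluster were tested, and each had a probe above background on all 6 arrays. In the Hoxb cluster 6 of 10 genes were tested, in the Hoxc cluster 7 of 9, and in the Hoxd cluster 4 of 9. By paralog number, 4 of 8 genes numbered 1 to 3 were tested, 14 of 15 numbered 4 to 8, and 10 of 16 numbered 9 to 13. Of the paralog 13 genes, at the 5′ end of their clusters, only Hoxa13 was tested, and Hoxb13, Hoxc13 and Hoxd13 were above background on no array. Hoxb1, Hoxc8, Hoxd1, Hoxd3 and Hoxd12 were also above background on no array. Hoxb3 and Hoxb9 were above background on 2 arrays and Hoxd11 on 1, too few for a test. A dim probe does not show that a gene is not transcribed, since probes differ in how well they hybridize.

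**Figure D1:**
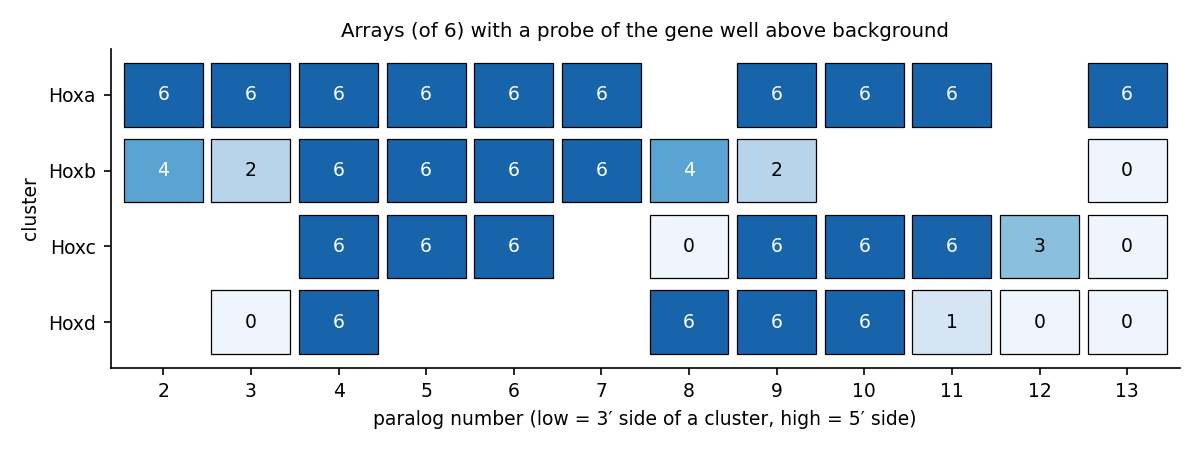
Number of the 6 arrays (3 young and 3 aged mice) on which a probe of each Hox gene of paralog numbers 2 to 13 was well above background. Rows are the 4 clusters, columns are paralog numbers, and an empty place is a paralog that the cluster does not have. The Hoxa row is at 6 throughout, whereas the Hoxd row holds 0 at paralog 3 and only 0 and 1 from paralog 11 on.

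Tbx4, Pitx1 and Tbx5, transcription factors that set hindlimb against forelimb, matched the labelled muscle. Tbx4 and Pitx1, which specify the hindlimb, were above background on all 6 arrays, and Tbx5, which specifies the forelimb, was on 0. Isl1, another of the limb position factors, was above background on 1 array and was not tested. Of 8 muscle fibre markers, 7 were tested, and their signals summed to 3430 to 4980, in units of the 75th percentile. Tbx4 was between -0.13 and -0.06 in young mice and between 0.04 and 0.13 in aged mice on the log2 scale, where 0 is the 75th percentile. The groups did not overlap for Tbx4, and the difference of 0.20 did not pass the test (adjusted p = 0.548 from limma).

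Between aged and young mice no Hox gene passed the test, and their median lay near that of all genes. The median log2 fold change was -0.07, beside -0.06 over all 20900 genes tested. Means were lower in aged mice for 18 of the 28 Hox genes (64.3%) and for 56.9% of all genes. None of the 28 had an adjusted p under 0.05 in limma, where 0.254% of all genes were called (0.196% higher and 0.0574% lower). At an unadjusted p under 0.05 there were 3 Hox genes, all lower in aged mice (10.7%), beside 8.36% of all genes in that direction. None was higher, beside 6.07% of all genes, and both directions together held 14.4% of all genes. In 4 Hox genes (14.3%) the highest aged mouse lay under the lowest young mouse, and 13.9% of all genes were separated in this way. In 0 Hox genes was every aged mouse above every young mouse, beside 7.92% of all genes. With 3 mice in each group, 0.1 is the smallest p that exact two-sided permutation allows. The 95% intervals of the log2 fold changes reached between 0.38 and 1.22 to either side (median 0.58).

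**Figure D2:**
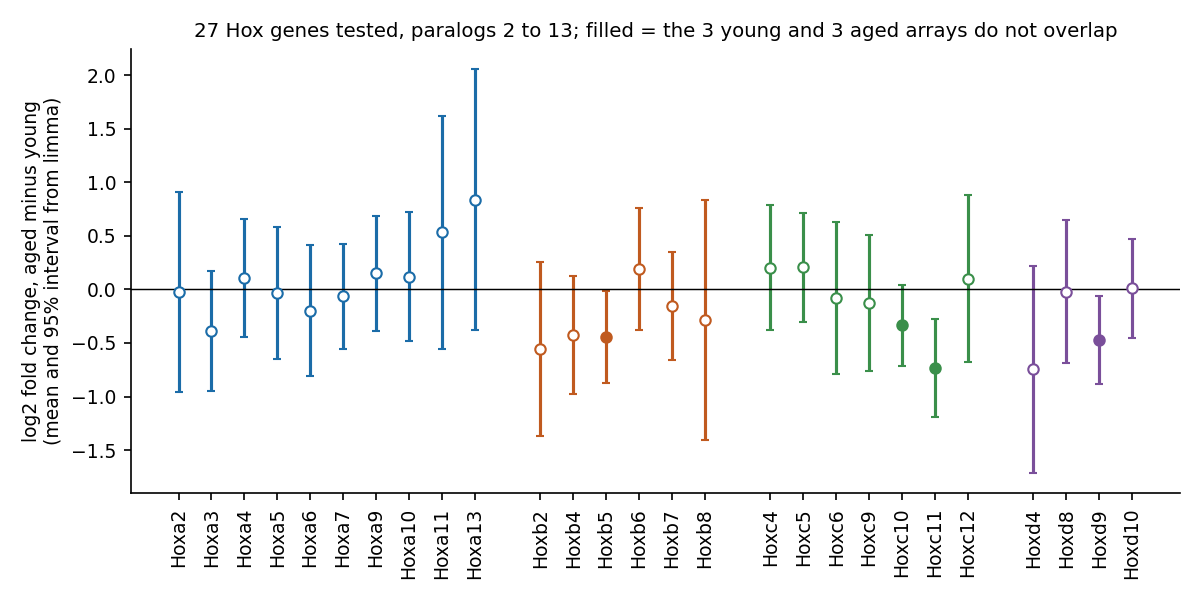
Log2 fold change between aged and young mice (n = 3 each) of the 27 Hox genes tested with paralog numbers 2 to 13, in order along each cluster, with 95% intervals from limma. Filled points are the 4 genes whose groups did not overlap, Hoxb5, Hoxc10, Hoxc11 and Hoxd9, all below 0, and the widest intervals are those of Hoxa13, Hoxb8 and Hoxa11.

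In the Hoxc cluster the fold changes ran from slightly above 0 at the 3′ side to below 0 at Hoxc10 and Hoxc11. Hoxc4 was at 0.20, Hoxc5 at 0.21, Hoxc6 at -0.08, Hoxc9 at -0.12, Hoxc10 at -0.34 and Hoxc11 at -0.73. Hoxc12, at the next position, was at 0.10, and Hoxc8 was not tested. The median of the 7 genes was -0.08, and without aged mouse 3 it was 0.13. Neighbouring genes of this series had intervals that overlapped, so the order of their fold changes is a description.

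Hoxc11, which is used in the lumbosacral region and the hindlimb, had the smallest p of the Hox genes. Its log2 signal, with mice always given in the order 1, 2, 3, was 1.44, 1.77 and 1.93 in the young group and 0.79, 1.10 and 1.06 in the aged group. All 3 aged mice were below all 3 young mice. The means were 1.72 ± 0.25 and 0.99 ± 0.17 (SD, n = 3), a 0.603-fold level in aged mice, with a log2 fold change of -0.73 (standard error 0.19, 95% interval -1.19 to -0.27, unadjusted p = 0.00705 and adjusted p = 0.191 from limma). Hoxc11 lay between -0.92 and -0.62 over the 18 other settings, some of which could not change it, with an adjusted p between 0.097 and 0.471 from limma.

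Hoxc10, a gene of the lumbar level next to Hoxc11, was 2.29, 2.25 and 2.48 in young mice and 2.02, 1.88 and 2.12 in aged mice. The groups did not overlap here either, but lay closer together than for Hoxc11. The log2 fold change was -0.34 (95% interval -0.71 to 0.04, adjusted p = 0.394 from limma). With 0 inside the interval, a change of Hoxc10 was not detectable with 3 mice in each group.

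Hoxd9, a more 3′ member of the posterior genes, was 2.18, 2.25 and 2.29 in young mice and 1.98, 1.78 and 1.53 in aged mice. Young mice lay within 0.11 of each other, and all aged mice were below them. The log2 fold change was -0.47 (standard error 0.17, unadjusted p = 0.0296 and adjusted p = 0.299 from limma). Hoxb5, a gene of the neck and shoulder level, was -2.52, -2.39 and -2.72 in young mice and -2.78, -3.01 and -3.17 in aged mice. The gap between the groups was small, from -2.72 in young mouse 3 to -2.78 in aged mouse 1. The log2 fold change of Hoxb5 was -0.44 (standard error 0.18, unadjusted p = 0.0437 and adjusted p = 0.333 from limma).

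**Figure D3:**
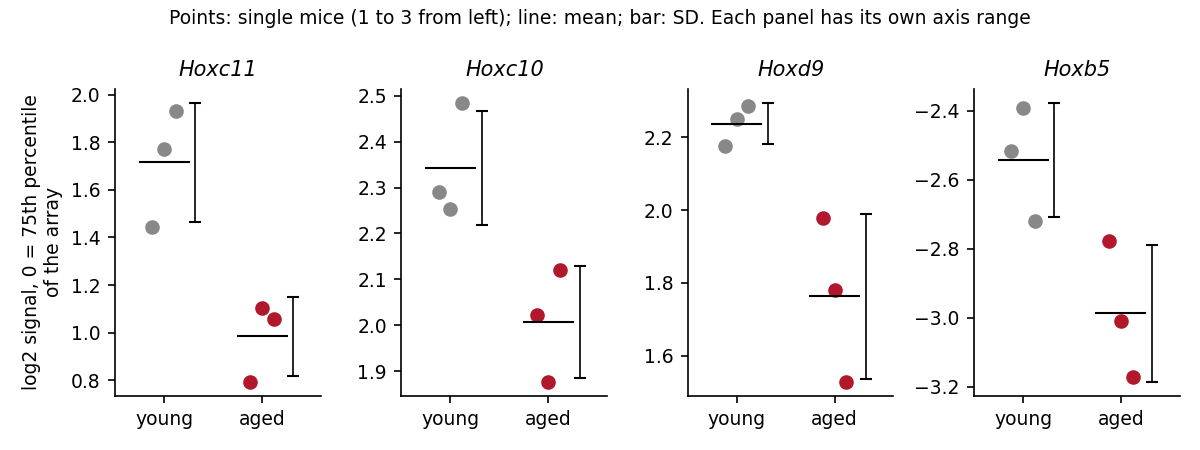
Log2 signal of the 4 Hox genes whose groups did not overlap, with 0 at the 75th percentile of the array. Each point is 1 mouse, the line is the mean and the bar is the SD of 3 mice, and the axes of the panels differ in range. Hoxc11 shows the widest gap, from 1.44 in the lowest young mouse to 1.10 in the highest aged mouse.

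The position of the arrays on the slide was not balanced between the groups. Row 1 held the 3 young mice and aged mouse 1, and row 2 held aged mice 2 and 3. With the row as a block, which compares aged mouse 1 with the young mice, the log2 fold change was -0.92 for Hoxc11, -0.32 for Hoxc10, -0.26 for Hoxd9 and -0.24 for Hoxb5. Under this block the median of the Hox genes was 0.04. Row 2 held no young mouse, so it gives no value of its own.

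In the Hoxd cluster Hoxd4 had the lowest fold change, at -0.75, but a wide interval (-1.71 to 0.22, adjusted p = 0.444 from limma). It was -0.28, 1.09 and 1.07 in young mice and 0.14, -0.53 and 0.02 in aged mice. Young mouse 1 lay among the aged mice, and without it the fold change was -1.20. Hoxd8 and Hoxd10 were at -0.02 and 0.01. The 3 young mice were between -0.60 and -0.51 for Hoxd10 and the aged mice on both sides of them, between -0.74 and -0.20.

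The Hoxb cluster had 5 of its 6 tested genes at a lower mean in aged mice and a median of -0.35. Hoxb2 was at -0.55, Hoxb4 at -0.43, Hoxb8 at -0.28 and Hoxb7 at -0.15, none of them with an unadjusted p under 0.05. Hoxb6 was the exception, at 0.19. The median of the cluster ranged from -0.52 to -0.20 on leaving out single mice, and was 0.08 with the row as a block. Hoxb9, which was not tested, was between -4.90 and -3.46 in young mice and between -4.64 and -3.00 in aged mice, near the dim end of the probes.

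The genes with the highest mean signal showed no difference larger than the spread between mice, apart from Hoxc10 and Hoxd9 above. Hoxc9, a gene of the trunk, was 3.76, 3.51 and 4.35 in young mice and 3.76, 4.03 and 3.46 in aged mice. Hoxc6 was 2.31, 2.82 and 3.24 in young mice and 2.88, 2.96 and 2.28 in aged mice. Hoxa7 was 2.35, 2.49 and 2.87 in young mice and 2.33, 2.75 and 2.43 in aged mice. In all 3 genes the groups overlapped over most of their range. The 95% intervals were -0.76 to 0.51 for Hoxc9, -0.79 to 0.63 for Hoxc6 and -0.55 to 0.43 for Hoxa7. The signal of a probe also depends on its sequence, so these genes are not ranked by amount.

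In the Hoxa cluster the genes from Hoxa2 to Hoxa7 had log2 fold changes between -0.39 (Hoxa3) and 0.11 (Hoxa4). Hoxa9 was at 0.15 and Hoxa10 at 0.12. The 2 probes of Hoxa9 disagreed in sign, at 0.15 and -0.20. The median of the 11 Hoxa genes was -0.03, none had an unadjusted p under 0.05, and the groups overlapped for all of them. Hoxa13 and Hoxa11, both at the 5′ end, were at 0.84 (95% interval -0.38 to 2.05) and 0.53 (95% interval -0.55 to 1.62). Both moved with single mice. Without young mouse 1 they were at 1.41 and 1.03, while Hoxa13 was at 0.48 without young mouse 3 and Hoxa11 at 0.26 without young mouse 2. With the slide row as a block Hoxa13 was at 0.28 and Hoxa11 at 0.005, below Hoxa2 (0.68), Hoxc12 (0.53) and Hoxa9 (0.50).

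Hoxa11 and Hoxa13 are described further because they differed between mice of the same age, a choice made after their values were seen. Hoxa11 patterns the lower leg and forearm, and Hoxa13 the foot and hand. Hoxa11 was 1.91, 0.36 and 0.45 in young mice and 0.91, 1.77 and 1.64 in aged mice. Hoxa13 was -0.24, -1.83 and -2.09 in young mice and -1.11, -0.16 and -0.38 in aged mice. Young mouse 1 and aged mice 2 and 3 were the highest for both genes, and young mice 2 and 3 the lowest, with aged mouse 1 between them. The range over the 6 arrays was 1.56 for Hoxa11 and 1.93 for Hoxa13, compared with a median range of 0.81 over all genes tested. The range was smaller in 83.7% of all genes for Hoxa11 and in 90.3% for Hoxa13, and Hoxb8 (1.81) and Hoxd4 (1.61) also had a wider range than Hoxa11. Hoxa11os, the noncoding transcript of the opposite strand at Hoxa11, was 3.11, 1.72 and 1.90 in young mice and 2.60, 2.80 and 2.73 in aged mice. Its lowest mice were again young mice 2 and 3. The strand of the probes was not given in the sources used here, so that signal of Hoxa11 and Hoxa11os may not be fully separate. The second Hoxa13 probe was above background only in aged mouse 1 and does not bear on this pattern.

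Hoxa10, next to Hoxa11, did not share this order of mice. It was 1.07, 0.72 and 1.28 in young mice and 0.71, 1.46 and 1.26 in aged mice, with young mouse 3 among the high ones. As medians of the deviation from the mean of each gene over the 6 arrays, Hoxa2 to Hoxa7 were at -0.29, 0.21 and 0.36 in young mice and 0.04, -0.11 and -0.21 in aged mice. The deviations of Hoxa11 were 0.74, -0.82 and -0.72 in young mice and -0.26, 0.60 and 0.46 in aged mice. Hoxa4 and Hoxa7 did not follow the other genes of the 3′ side on every array, with Hoxa4 at -0.47 in young mouse 3 and Hoxa7 at 0.21 in aged mouse 2. The signs of the Hoxa2 to Hoxa7 medians were opposite to those of Hoxa11 on the 6 arrays. Outside the Hoxa cluster, Hoxb2 and Hoxb8 had the signs of the Hoxa2 to Hoxa7 medians, but both were dim and above background on only 4 arrays. The deviations of Hoxb2 were -0.06, 0.52 and 0.37 in young mice and 0.39, -0.88 and -0.34 in aged mice. Those of Hoxb8 were -0.94, 0.87 and 0.49 in young mice and 0.27, -0.29 and -0.41 in aged mice. Hoxb6, above background on all 6 arrays, had the signs of Hoxa11 instead. Its deviations were 0.31, -0.06 and -0.54 in young mice and -0.01, 0.21 and 0.09 in aged mice. The order of mice seen for Hoxa11 and Hoxa13 was thus not confined to the Hoxa cluster. Over all 4888 genes with a mean log2 signal below -2, the medians were -0.04, 0.05 and 0.09 in young mice and 0.11, 0.02 and -0.06 in aged mice. Their signs were those of Hoxa2 to Hoxa7 except in aged mouse 2. Genes between -2 and 0 differed in aged mice 1 and 2. Over the 7291 genes above 2, the medians were 0.03, -0.01 and 0.13 in young mice and -0.11, 0.02 and -0.03 in aged mice. These, and genes between 0 and 2, had the signs of Hoxa2 to Hoxa7 only in young mouse 3 and aged mouse 3. Most of these signs were thus shared by dim genes, but not by bright ones. The signs of the Hox genes were noticed in the values and were not tested.

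**Figure D4:**
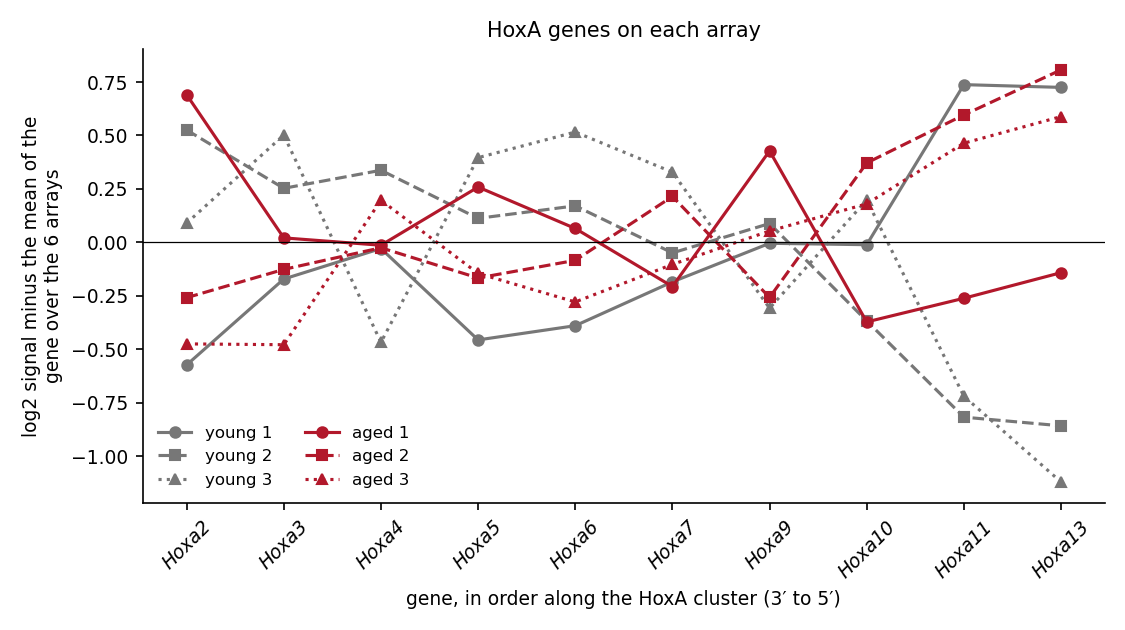
Log2 signal of the 10 Hoxa genes from Hoxa2 to Hoxa13 on each array, as the difference from the mean of the gene over the 6 arrays, in order along the cluster. Grey lines are young mice and red lines are aged mice. The lines of young mouse 1, aged mouse 2 and aged mouse 3 end high at Hoxa11 and Hoxa13, with values from 0.46 to 0.81, whereas those of young mice 2 and 3 end low, from -0.72 to -1.12.

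Promoters are shown for Hoxa11 and Hoxa13, whose signals had the same high and low mice, and for Hoxd9, whose age groups did not overlap. The sequences are those of RefSeq on GRCm38.p6, from 250 bases before to 50 bases after the transcript start, with every CG dinucleotide in capitals. Hoxa11 and Hoxa13 lie on the minus strand of chromosome 6 and Hoxd9 on the plus strand of chromosome 2.
Hoxa11, chr6:52245761-52246060: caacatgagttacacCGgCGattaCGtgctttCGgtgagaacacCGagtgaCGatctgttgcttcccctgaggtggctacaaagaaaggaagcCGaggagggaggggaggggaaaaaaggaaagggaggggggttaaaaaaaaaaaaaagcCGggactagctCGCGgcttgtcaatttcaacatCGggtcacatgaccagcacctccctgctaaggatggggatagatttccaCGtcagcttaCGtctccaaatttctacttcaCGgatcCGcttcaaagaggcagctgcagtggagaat
Hoxa13, chr6:52260831-52261130: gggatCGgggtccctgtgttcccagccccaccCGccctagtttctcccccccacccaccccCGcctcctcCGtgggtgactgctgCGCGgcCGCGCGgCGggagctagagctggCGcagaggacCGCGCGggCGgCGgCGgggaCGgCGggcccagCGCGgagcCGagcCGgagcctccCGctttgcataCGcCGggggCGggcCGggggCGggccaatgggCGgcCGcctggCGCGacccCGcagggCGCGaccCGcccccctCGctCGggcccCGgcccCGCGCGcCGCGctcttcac
Hoxd9, chr2:74697513-74697812: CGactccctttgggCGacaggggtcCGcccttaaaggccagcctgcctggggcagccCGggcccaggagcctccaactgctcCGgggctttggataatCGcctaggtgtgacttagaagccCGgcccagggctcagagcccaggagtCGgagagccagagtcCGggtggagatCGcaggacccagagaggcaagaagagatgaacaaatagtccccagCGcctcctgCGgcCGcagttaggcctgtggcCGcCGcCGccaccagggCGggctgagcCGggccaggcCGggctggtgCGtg

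The Hoxa13 window held 45 CG dinucleotides, Hoxd9 20 and Hoxa11 15. The median over the 32851 promoter windows of the table was 7, and 98.1% of them had fewer than Hoxa13. Windows were found for 22 of the 39 Hox genes, 24 windows in all, with a median of 14.5 CG dinucleotides and a range from 4 (one window each of Hoxa9, Hoxd4 and Hoxd11) to 45. The GC box GGGCGG, searched on both strands, occurred 6 times in the Hoxa13 window, 2 times in that of Hoxd9 and 0 times in that of Hoxa11. It was found in 35.7% of all windows and in 10 of the 24 Hox windows. TATAAA was in none of the 3 windows shown, and in 13.6% of all windows. CCAAT was found once or more in 37.4% of all windows and 1 time in that of Hoxa13. Hoxa11 and Hoxa13, which were high in the same mice, differed in these letters.

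Of the genes that act with Hox proteins or upon the clusters, 6 lists of 71 genes were examined, and 48 genes were tested. None passed an adjusted p of 0.05 in limma (0 higher and 0 lower), and 8 had an unadjusted p under 0.05 (16.7%, beside 14.4% of all genes), 3 higher and 5 lower in aged mice. These lists and the Hox genes share the same 6 arrays.

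Among the TALE cofactors, 8 of 9 were tested and their median was -0.13. Pbx3, a partner of Hox proteins on DNA, was 0.55, 1.11 and 0.14 in young mice and 0.22, -0.60 and -0.23 in aged mice, at -0.80 (adjusted p = 0.322 from limma) with overlapping groups. Pknox2, a relative of the Meis factors, was 2.33, 2.33 and 2.57 in young mice and 2.99, 3.25 and 2.92 in aged mice, at 0.64 on the log2 scale (adjusted p = 0.194 from limma). The aged mice were all above the young mice for Pknox2. Meis1, Meis2 and Meis3 were at 0.02, -0.18 and -0.30.

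Among the Polycomb and trithorax genes, 16 of 19 were tested, with a median of -0.14. Ezh2, the methyltransferase that places the repressive Polycomb mark on histone H3, was -0.84, -0.63 and -0.49 in young mice and -1.08, -1.14 and -1.55 in aged mice. Its log2 fold change was -0.60 (adjusted p = 0.260 from limma). The groups did not overlap, with every aged mouse under the young mice. Cdx1, Cdx2 and Cdx4, which switch on Hox genes in the embryo, were above background on no array, and Gdf11 and the 3 retinoic acid receptors were between -0.34 and -0.05.

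Genes that flank the clusters were tested in 6 of 9 cases. Skap2, at the 3′ side of the Hoxa cluster, was 0.06, 0.65 and 0.35 in young mice and 1.34, 0.76 and 1.77 in aged mice, at a log2 fold change of 0.94 (adjusted p = 0.245 from limma). Mtx2 and Lnpk, on either side of the Hoxd cluster, were at -0.53 and -0.20. Of the noncoding RNAs, Hoxa11os and Haglr were tested, at 0.47 and 0.41 with overlapping groups, and Hottip, transcribed beside Hoxa13, was above background on no array. Hoxd3os1, added to the list after its values were seen, was at -0.32.

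The limb position factors had a median of -0.28 over 12 tested of 17. Lbx1, which guides muscle precursors into the limb, was 0.42, 0.12 and 0.44 in young mice and -0.49, 0.01 and -0.40 in aged mice, at -0.63 (adjusted p = 0.253 from limma). Pitx1 was at -0.45 (adjusted p = 0.467). Prrx1, a marker of limb mesenchyme, was at -0.34, and Pax3 at -0.11.

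**Figure D5:**
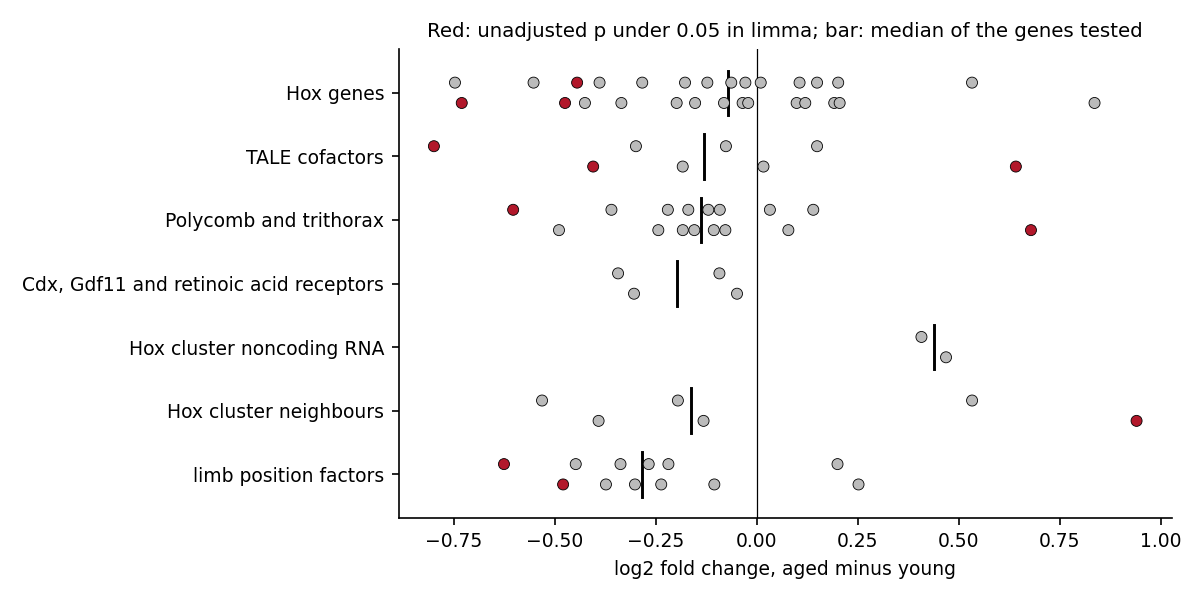
Log2 fold change between aged and young mice of the Hox genes tested and of the 6 lists of partners, regulators and neighbours, 1 point per gene. Red points had an unadjusted p under 0.05 in limma (3 of 28 Hox genes and 8 of 48 others), no point had an adjusted p under 0.05, and the black bars are medians, which lie between -0.28 and -0.07 in every row but that of the 2 noncoding RNAs.

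Markers of the cell types that the muscle could hold were measured on the same arrays. Of 58 markers tested, 2 passed the test in limma, Krt18, an epithelial keratin, which was higher in aged mice (5.98, adjusted p = 0.0170), and Prx, a myelin protein of Schwann cells, which was lower (-1.29, adjusted p = 0.0428). Of all genes, 0.254% passed. At an unadjusted p under 0.05 in limma, 8.36% of all genes were lower and 6.07% higher, the shares to set beside the counts below. The summed signal of the 10 fibroblast markers, all tested, was between 414 and 461 in young mice and between 230 and 370 in aged mice, in units of the 75th percentile, with 6 of the 10 at a lower and 4 at a higher mean in aged mice, and a median of -0.17. At an unadjusted p under 0.05 there were Col1a1 at -1.56 (adjusted p = 0.291 from limma) and Dcn at -0.85 (adjusted p = 0.330), and Dcn was the brightest probe in the sum. Of the 4 with a higher mean, Dpt was at 0.81, Cd34 at 0.69, Ly6a at 0.48 and Osr1 at 0.13. Of 5 tendon markers, 4 were lower and 1 higher at an unadjusted p under 0.05, and the sum was between 61.2 and 66.1 in young and between 42.2 and 81.9 in aged mice. Beside the order of mice for Hoxa11 and Hoxa13, the tendon sums were 64.1, 61.2 and 66.1 in young mice and 42.2, 68.7 and 81.9 in aged mice, and the fibroblast sums 426, 414 and 461 in young mice and 370, 287 and 230 in aged mice. Aged mice 2 and 3, which were among the high mice for both Hox genes, had the highest tendon sums. Young mouse 1, also high for both, had a lower tendon sum than young mouse 3, which was low for both. The 1 higher tendon marker was Scx, at 4.45, 5.45 and 5.63 in aged mice, and it was the brightest of the list there. As medians of the difference from the young mean, the tendon markers were at -1.26, -1.58 and -0.81 in aged mice. The part of tendon cells in these values was not tested. Satellite cell markers summed to between 16.1 and 17.9 in young and between 19.4 and 28.5 in aged mice (5 of 6 tested, Myf5 above background on no array), with a median of 0.10. Means were higher in aged mice for 3 of them and lower for 2. Cdh15, the brightest in the sum, was at 0.10. Myod1 had the highest fold change, at 1.20, with overlapping groups (adjusted p = 0.421 from limma). The 1 satellite cell marker with an unadjusted p under 0.05 was Calcr, at a lower mean in aged mice (-1.19, adjusted p = 0.306 from limma), and Pax7 was at -0.02. Sums of the 8 Schwann cell markers, all tested, were between 24.7 and 44.6 in young and between 24.6 and 41.7 in aged mice, with 5 lower and 1 higher at an unadjusted p under 0.05. Endothelial sums (6 of 6) were between 15.6 and 18.8 in young and between 11.4 and 13.7 in aged mice. The endothelial median was -0.15, with 3 markers at a lower and 3 at a higher mean in aged mice. Cdh5 and Kdr, the brightest in that sum, were at -0.79 and -0.36, and Pecam1, Tek and Emcn at 0.52, 0.46 and 0.06. Mural cell sums (5 of 5) were between 24.6 and 27.9 in young and between 20.9 and 23.9 in aged mice, with 4 means lower and 1 higher. Macrophage sums (5 of 6, Cd163 above background on no array) were between 18.9 and 20.9 and between 20.9 and 26.2, adipocyte sums (4 of 5) between 94.6 and 106 and between 75.8 and 96.3, and epithelial sums (3 of 6, Epcam and Cdh1 above background on no array) between 0.389 and 0.78 and between 14.8 and 46.0. Means in aged mice were higher for 4 macrophage markers and lower for 1, lower for the 4 adipocyte markers, and higher for the 3 epithelial markers. Krt18 was the brightest epithelial marker on every array. Krt8, above background on 3 arrays, was at 3.79 and Krt14 at 0.36. The part of these cells in the values of Hoxc11, Hoxc10, Hoxd9 and Hoxb5 was not tested.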

How the data were processed

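Total RNA of gastrocnemius muscle from 3 young and 3 aged male mice was labelled with Cy3 and hybridized to single-colour Agilent arrays. The authors deposited the Feature Extraction output (version 11.0.1.1 per the file headers, 9.5 in the submitters' processing notes). Its processed signal is an intensity on a linear scale, background-subtracted and detrended within the array and left unscaled from array to array. The series matrix holds the same intensities (largest difference 0), as deposited. The study's methods name no normalization or test for the arrays.

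Spots flagged as outliers (161 to 212 of 59305 that were not controls) were left out, log2 signals of spots of a probe were averaged, and every array was set to 0 at its 75th percentile. On some array 12 of the 55681 probes had no spot without a flag. Accessions without version were matched to RefSeq (GRCm38.p6), which named 28331 probes. The array was designed on mm9, so coordinates are given only for the promoter windows, on GRCm38.p6. A gene was represented by the probe with the highest mean among those well above background on at least 3 of 6 arrays, and no probe was saturated. The test of age was that of limma (lmFit, eBayes; version 3.58.1, under R 4.3.3). P-values of 20900 genes were adjusted by Benjamini-Hochberg, with 0.05 as threshold. In simulated arrays of 20900 genes with 200 changed, log2 changes of 1, 2 and 3 were recovered for 0%, 91.5% and 98.5% of the changed genes. The number of arrays limits the precision. The p-values set the difference between the groups against the spread between these mice, which limma moderates with that of all genes.

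Values in every mouse are given for Hox genes with an unadjusted p under 0.05, groups without overlap or the 5 highest mean signals, and for the genes of the lists with an unadjusted p under 0.05. Some genes that these rules or the results cover are not reported here by name. Lists were TALE cofactors, Polycomb and trithorax, Cdx with Gdf11 and retinoic acid receptors, Hox cluster noncoding RNA, Hox cluster neighbours and limb position factors, beside 10 marker lists. The Hox genes and all lists were chosen with earlier results of these data known. Alternatives tried were normexp (offset 50, with median spot signals, as the files hold no mean), quantile normalization, median scaling, the percentile over detected probes, no filter or a filter on all 6 arrays, the mean of probes, single probes, the series matrix, a mean-variance trend, a block for the slide row or for the replicate number, and the omission of single mice.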

Additional observations from a re-analysis of the deposited data

How the results depend on the processing

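No Hox gene passed the threshold under any of the 18 alternatives, and between 1 and 7 of them had an unadjusted p under 0.05. Of the 28 Hox genes, 10 kept their sign in every alternative, though not their size. Several alternatives could not change the fold change of a gene with 1 kept probe. These were the series matrix, the trend, the replicate block, either filter, the mean of probes and single probes. A kept sign therefore rests on the other alternatives. The 10 genes lay between -0.92 and -0.62 for Hoxc11, -0.48 and -0.26 for Hoxc10, -0.62 and -0.26 for Hoxd9, -0.59 and -0.24 for Hoxb5, -0.60 and -0.26 for Hoxb4, -1.20 and -0.48 for Hoxd4, -0.57 and -0.17 for Hoxa3, 0.005 and 1.03 for Hoxa11, 0.28 and 1.41 for Hoxa13, and 0.03 and 0.32 for Hoxc5. The other 18 changed sign in at least 1, with the cause not tested. The number of all genes past the threshold was 53, and it was 8 when dim probes were kept (36710 genes tested), 35 with probes above background on all 6 arrays, and 5 under the replicate block. It was between 1 (without aged mouse 3) and 199 (without aged mouse 1) when 1 mouse was left out, and between 8 and 9 without any other mouse. The correlations of the deviations of same-numbered mice were -0.06, -0.27 and 0.03, so the numbers do not pair the mice. With the replicate number as a block, 0 Hox genes passed. The median was -0.07 again, which was fixed in advance, since this balanced block leaves every fold change as it was. Median scaling moved the median of all genes from -0.06 to -0.21 and that of the Hox genes to -0.22.

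Signs turned under normexp for Hoxc12 (-0.0277) and Hoxd8 (0.0239), under quantile normalization for Hoxc12 (-0.0181) and Hoxd10 (-0.0014), under median scaling for Hoxa4 (-0.0416), Hoxa10 (-0.0275), Hoxc12 (-0.0489) and Hoxd10 (-0.14), with the percentile over detected probes for Hoxa2 (0.0057) and Hoxd8 (0.0127), and with the mean of all probes for Hoxa9 (-0.0278). With the row as a block they turned for Hoxa2 (0.68), Hoxa5 (0.24), Hoxa10 (-0.31), Hoxb2 (0.11), Hoxb7 (0.077), Hoxb8 (0.13), Hoxc4 (-0.0029), Hoxc6 (0.0949) and Hoxd8 (0.33). When 1 mouse was left out, fold changes ranged from -0.38 to 0.23 for Hoxa2, -0.10 to 0.30 for Hoxa4, -0.27 to 0.15 for Hoxa5, -0.44 to 0.0103 for Hoxa6, -0.19 to 0.0852 for Hoxa7, -0.0275 to 0.32 for Hoxa9, -0.0359 to 0.34 for Hoxa10, -0.0296 to 0.40 for Hoxb6, -0.27 to 0.0147 for Hoxb7, -0.82 to 0.0814 for Hoxb8, -0.32 to 0.15 for Hoxc6, -0.30 to 0.12 for Hoxc9, -0.12 to 0.37 for Hoxc12, -0.20 to 0.25 for Hoxd8 and -0.17 to 0.10 for Hoxd10. The median of the Hox genes was between -0.25 (without young mouse 1) and 0.02 (without aged mouse 3). Signal over background limits Hoxb2, Hoxb8 and Hoxc12, which were dim on 2 or 3 arrays.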
